A study of Mus musculus with 18 samples.

Results

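The caveolins and cavins described here are 6 genes that build or hold in place the caveolae of the cell membrane: Cav1, Cav2, Cavin1, Cavin2, Cavin3 and Ehd2. They were chosen by symbol from a table of 35655 genes, all 6 were present, and all 6 were among the 10312 genes that passed the filter on low counts. Their RNA was followed in the mouse carotid artery before wire injury (day 0, 4 libraries) and 7 days (4 libraries), 14 days (3 libraries), 21 days (4 libraries) and 28 days (3 libraries) after it. All animals were wild-type male mice of the C57/BL6 strain, 11 weeks old at injury and fed chow, and no group carried a transgene or a drug treatment. The left carotid was injured and the right served as the control vessel. Whether the day 0 libraries came from the uninjured side of mice that were injured elsewhere was not stated. Each library was made from tissue cut by laser from sections of the artery. Per the paper, the cut sections held outer elastic lamina and neointima, the tissue that forms after wire injury. A figure legend there calls the samples of all days, day 0 included, pooled neointima. The libraries were read by MACE-seq, a method that counts unique molecules at the 3' ends of transcripts. Each library therefore mixes smooth muscle, endothelium and any cells that entered the wall, and fewer cells of a type cannot be told apart from less RNA per cell.

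Caveolae are flask-shaped pits of the cell membrane that are dense in endothelium, smooth muscle and fat cells. Caveolins are the membrane-embedded part of their coat, the cavins are cytoplasmic proteins that assemble on the caveolin scaffold and keep the pit curved, and the ATPase EHD2 gathers at the neck and holds the pit at the surface. In the artery wall, caveolae buffer membrane stretch and gather signalling proteins such as endothelial nitric oxide synthase, which binds caveolin-1 and is held inactive by it.

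The libraries held 440675 to 878310 counts (median 659166). Levels below are counts per 1000000 (CPM) of each library's total after TMM scaling, and comparisons between days are edgeR quasi-likelihood tests with Benjamini-Hochberg adjustment over the 10312 genes and a threshold of 0.05. The labelled tissue was checked against a list of 10 contractile smooth muscle genes, whose summed level was 37973 ± 2188 CPM before injury (SD, n = 4) and 3739 ± 2626 CPM 7 days after it (n = 4). The later means were 13954 ± 9553 CPM (day 14, n = 3), 15141 ± 5928 CPM (day 21, n = 4) and 24995 ± 4546 CPM (day 28, n = 3). A list of 10 macrophage genes summed to 116 to 575 CPM in the day 0 libraries and 4432 to 6742 CPM in those of day 7. Of 8 fat cell markers, Lep had no count in 18 of 18 libraries, Cidec none in 17, Plin1 none in 16 and Adipoq none in 15, whereas Plin4 was counted in every library. The fat cell list summed to a mean of 298 CPM on day 0, 39.6 CPM on day 7, 115 CPM on day 14, 205 CPM on day 21 and 358 CPM on day 28. Of its 3 genes tested, Plin4 was lower on days 7 and 21, and Cfd and Car3 were higher on days 21 and 28 (edgeR). Over all libraries Plin4 had 1827 counts, Cfd 306 and Car3 243, and Cfd and Car3 had none in 11 and 8 libraries. The sum of the list thus rests mostly on Plin4. The part of fat cells in the levels of the caveolar genes was not tested.

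The promoter windows of Cav1 and Cavin1 are given because these genes carry changes past the threshold. Those of Cav2 and Ehd2 are given because no other gene followed either as closely as they followed each other. Cavin3, which was called lower on day 7, had no window in the promoter set. Windows run from 250 bases before to 50 bases after the start of transcription in RefSeq (build GRCm38.p6), and capitals mark the matches, on either strand, to the 4 short motifs spelled out after the sequences. The windows are chr6:17306085-17306384 on the plus strand for Cav1, chr11:100970568-100970867 on the minus strand for Cavin1, chr6:17280935-17281234 on the plus strand for Cav2 and chr7:15967486-15967785 on the minus strand for Ehd2.
Cav1: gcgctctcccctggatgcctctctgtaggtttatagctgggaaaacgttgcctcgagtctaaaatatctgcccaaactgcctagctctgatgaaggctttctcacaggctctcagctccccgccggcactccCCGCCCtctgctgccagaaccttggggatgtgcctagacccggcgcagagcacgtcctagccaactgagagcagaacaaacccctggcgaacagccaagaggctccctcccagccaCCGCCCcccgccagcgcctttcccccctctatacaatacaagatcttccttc
Cavin1: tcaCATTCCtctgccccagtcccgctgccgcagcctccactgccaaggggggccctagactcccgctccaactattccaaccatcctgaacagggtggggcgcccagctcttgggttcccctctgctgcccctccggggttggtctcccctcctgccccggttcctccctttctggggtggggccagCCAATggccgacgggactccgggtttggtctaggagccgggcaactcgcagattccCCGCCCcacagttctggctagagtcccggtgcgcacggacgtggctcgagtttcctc
Cav2: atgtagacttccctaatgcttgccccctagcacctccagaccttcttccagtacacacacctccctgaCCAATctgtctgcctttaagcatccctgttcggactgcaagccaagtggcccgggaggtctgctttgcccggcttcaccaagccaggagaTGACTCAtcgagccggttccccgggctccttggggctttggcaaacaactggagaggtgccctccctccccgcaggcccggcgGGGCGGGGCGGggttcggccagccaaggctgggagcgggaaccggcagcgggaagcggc
Ehd2: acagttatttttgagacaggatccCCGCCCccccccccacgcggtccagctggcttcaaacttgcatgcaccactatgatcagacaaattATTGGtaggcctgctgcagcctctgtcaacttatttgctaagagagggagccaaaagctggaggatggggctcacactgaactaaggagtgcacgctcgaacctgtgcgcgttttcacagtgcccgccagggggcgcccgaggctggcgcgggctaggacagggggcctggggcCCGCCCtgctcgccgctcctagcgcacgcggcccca

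GGGCGG matched 2 times each in the printed windows of Cav1, Cav2 and Ehd2 and 1 time in that of Cavin1. It was present in 35.7% of 32851 mouse windows of the same length, and not in the Cavin2 window. A second Cav1 window, at chr6:17307390-17307689, held no match to any of the motifs searched. CCAAT was found 1 time each in Cav2, Cavin1, Ehd2 and Cavin2 (all promoters, 37.4%) and not in Cav1. TGANTCA was found 1 time in Cav2 (7.81% of all) and CATTCC 1 time in Cavin1 (14.7% of all). The CArG box was matched in none of the 7 windows of the 5 genes that the promoter table holds, against 1.63% of all windows. No match overlapped a match to another of these motifs. Promoter activity was not measured.

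On build GRCm39, Cav1 (chr6:17306140-17341451, plus strand, 3 exons, 178 codons) lies 16262 bases downstream of the end of Cav2 (chr6:17281026-17289877, plus strand, 162 codons), so these genes are neighbours on the same strand. Cavin1 (chr11:100847559-100861713, 392 codons), Cavin3 (chr7:105128391-105131507, 260 codons) and Ehd2 (chr7:15680874-15701629, 543 codons) are on the minus strand, and Cavin2 (chr1:51328266-51345710, 418 codons) on the plus strand. In each of the 6 genes but Ehd2, an exon overlaps an exon of a noncoding or unverified gene on the opposite strand. The sources do not state whether counting used strand, so counts from these genes cannot be fully told apart from those of their antisense neighbours.

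Cav1 encodes caveolin-1, without which caveolae do not form outside striated muscle. It was lower on day 21 than before injury, and its mean was lowest on that day. The day 0 libraries gave 1173, 1197, 1179 and 1388 CPM (mean 1234 ± 103, SD, n = 4). The day 7 libraries gave 534, 530.1, 1908 and 1324 CPM (1074 ± 669.5, n = 4), so that replicates 1 and 2 lay below every day 0 library and replicate 3 above every one. On day 14 the values were 1011, 402 and 686 CPM (699.9 ± 304.5, n = 3). All 3 of these were below the lowest day 0 library. On day 21 they were 339, 396, 526 and 514 CPM (444 ± 91.2, n = 4), and on day 28 they were 632, 531 and 457 CPM (539.9 ± 87.8, n = 3). Every day 21 and day 28 library was thus under all of day 0, and day 21 and day 28 overlapped each other.

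In the edgeR test, Cav1 was lower on day 21 than on day 0, at 35.9% of the day 0 level (log2 fold change -1.48, SE 0.33, adjusted p = 0.00552). The day 28 difference was -1.19 (SE 0.36, 95% interval -1.93 to -0.45) and did not pass (edgeR adjusted p = 0.105), although the groups did not overlap. The adjusted p for day 28 ran from 0.00181 to 0.252 over the alternatives tried, with DESeq2 at 0.0362. The day 14 difference was -0.82 (SE 0.35, edgeR adjusted p = 0.215). On day 7 it was -0.20, with a 95% interval of -0.86 to 0.46 that spans both a drop and a rise (edgeR adjusted p = 0.744). Against day 7, Cav1 was lower on day 21 (-1.28, SE 0.33, edgeR adjusted p = 0.0162), but that call was lost without day 7 replicate 3 (0.12) or without day 21 replicate 1 (0.0675). The day 28 value against day 7 was -0.99 (SE 0.36, edgeR adjusted p = 0.0643; DESeq2 0.0321).

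Cav2 encodes caveolin-2, which joins caveolin-1 in hetero-oligomers and needs it to reach the cell surface. Its level did not pass the test in any comparison. The libraries gave 532, 374, 439.7 and 389.7 CPM on day 0 (434 ± 70.9) and 223, 167, 626 and 488 CPM on day 7 (376 ± 218). On day 7, replicates 1 and 2 fell below every day 0 library, as they did for Cav1, and replicate 3 above every one. Day 14 gave 414, 284 and 368 CPM (355 ± 66.0), and day 21 gave 234, 525, 286 and 384 CPM (357 ± 128). The values of day 28 were 408, 357 and 455 CPM (407 ± 49.1). All 5 days overlapped. The log2 differences from day 0 were -0.21, -0.29, -0.28 and -0.09 on days 7, 14, 21 and 28, with 95% intervals that together ran from -0.99 to 0.61 and so leave room for a change of either sign.

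Cavin1 encodes the cavin that every caveola needs, also known as PTRF. It was lower at 3 of the 4 times after injury and stood near its day 0 level on day 28. The day 0 libraries gave 3113, 2646, 2653 and 2211 CPM (mean 2656 ± 368, n = 4). On day 7 the values were 949, 1005, 1746 and 1456 CPM (1289 ± 380.1, n = 4), which were all below the lowest day 0 library. Day 14 gave 1608, 976 and 1541 CPM (1375 ± 347, n = 3), and day 21 gave 1208, 1645, 1409 and 1529 CPM (1448 ± 187, n = 4). Neither reached any day 0 library, and days 7, 14 and 21 overlapped each other. On day 28 the libraries gave 2327, 2024 and 2419 CPM (2257 ± 207, n = 3), above every library of days 7, 14 and 21 and overlapping day 0.

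The Cavin1 level on day 7 was 48.5% of that on day 0 (log2 fold change -1.04, SE 0.22, edgeR adjusted p = 0.00108). The differences were -0.95 on day 14 (SE 0.24, edgeR adjusted p = 0.0145) and -0.88 on day 21 (SE 0.22, adjusted p = 0.0116). The day 14 call was lost without day 14 replicate 2 (edgeR adjusted p = 0.15). On day 28 the difference from day 0 was -0.23, with a 95% interval of -0.72 to 0.25 (edgeR adjusted p = 0.692). Against day 7, Cavin1 was 1.75-fold higher on day 28 (0.81, SE 0.23, edgeR adjusted p = 0.0195), and this call was lost without day 7 replicate 1 (0.0528), day 7 replicate 2 (0.0508) or day 28 replicate 3 (0.0566).

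Cavin2, also called SDPR, encodes a cavin that shapes caveolae and binds Cavin1. It did not pass the test in any comparison of the fit over all libraries. The day 0 libraries gave 90.8, 148, 185 and 163 CPM (147 ± 40.1, n = 4), and those of day 7 gave 103, 113, 225 and 163 CPM (151 ± 55.9, n = 4). The values of day 14 were 205, 93.5 and 125 CPM (141 ± 57.3, n = 3). These ranges overlapped over most of their length. On day 21 the values were 91.1, 115, 104 and 44.2 CPM (88.5 ± 31.1, n = 4), and on day 28 they were 134, 117 and 190.1 CPM (147 ± 38.2, n = 3). Day 21 had the lowest mean, with a log2 difference of -0.72 from day 0 (SE 0.33, 95% interval -1.40 to -0.04, edgeR adjusted p = 0.193). A fit of these days blocked on the number in the library names gave -1.05 (SE 0.30, edgeR adjusted p = 0.041). It held only the 3 pairs that share a number. Left out were day 0 replicate 1 (90.8 CPM, its day's lowest) and day 21 replicate 2 (115 CPM, its day's highest). The block was not tested apart from the loss of these libraries, and libraries sharing a number did not deviate together. The differences on days 7, 14 and 28 were 0.04, -0.05 and 0.00.

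Cavin3, also called PRKCDBP, encodes a cavin that links caveolae to protein kinase C delta. It was lower on day 7 and did not pass the test at later times. The day 0 libraries gave 171, 355, 312 and 444 CPM (mean 320.3 ± 114, n = 4), and the day 7 libraries gave 194, 138, 185 and 161 CPM (169.8 ± 25.1, n = 4). The groups overlapped at day 0 replicate 1 (171 CPM), the lowest day 0 library. The log2 difference was -0.92 (SE 0.30, edgeR adjusted p = 0.0342), and it lost its call in 5 of the fits that left out a library, with adjusted p between 0.0549 and 0.123. In later libraries Cavin3 stood at 334, 206 and 217 CPM (day 14), 356, 159, 335 and 279 CPM (day 21) and 381, 197 and 189 CPM (day 28). Each of these days overlapped day 0, and their log2 differences from it were -0.34, -0.18 and -0.33 (edgeR adjusted p = 0.694 to 0.802).

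Ehd2 encodes the ATPase at the caveolar neck. It did not pass the test in any comparison, and its day means stayed between 333 and 397 CPM. The libraries gave 487, 329.9, 419 and 352 CPM on day 0, and 210.1, 210.2, 464 and 449 CPM on day 7. As with Cav1 and Cav2, day 7 replicates 1 and 2 lay under every day 0 library while replicates 3 and 4 did not. Later libraries gave 445, 355 and 267 CPM (day 14), 339, 448, 273 and 377 CPM (day 21) and 338, 387 and 312 CPM (day 28). The log2 differences from day 0 were -0.25, -0.16, -0.14 and -0.20 on days 7, 14, 21 and 28, and their 95% intervals together ran from -0.80 to 0.44.

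**Figure D1:**
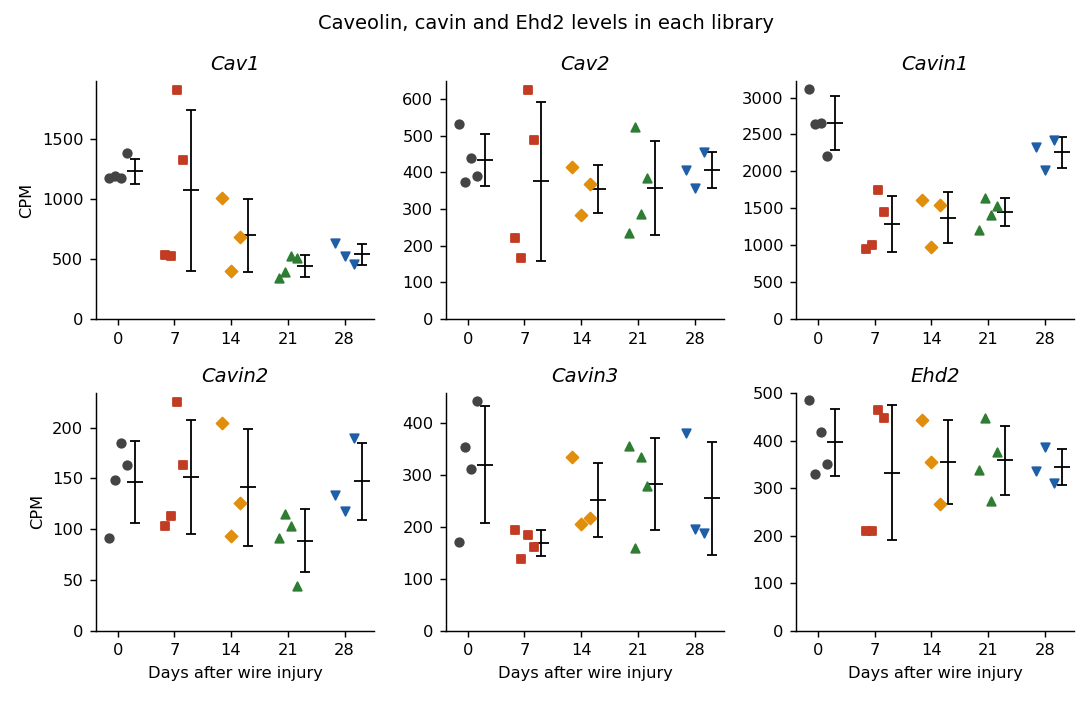
Level of each of the 6 genes (CPM, on the vertical axis of its own panel) in every library by day after injury (horizontal axis), with points for libraries and the day mean ± SD. Cavin1 stands lower on days 7, 14 and 21 than on day 0 and at 2257 CPM on day 28, while Cav1 stands at 444 CPM on day 21 and 539.9 CPM on day 28 against 1234 CPM on day 0.

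**Figure D2:**
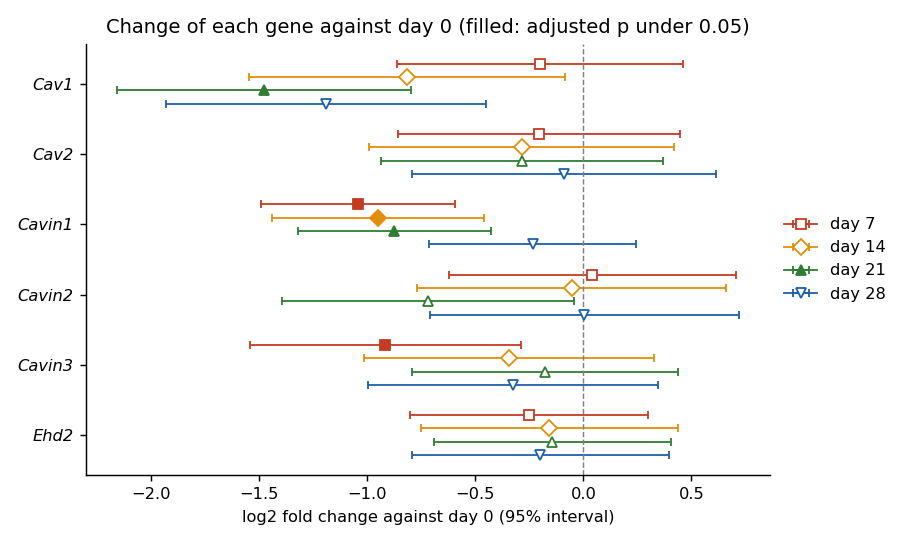
Log2 fold change of each gene against day 0 on days 7, 14, 21 and 28 (horizontal axis) with its 95% interval from the edgeR fit. Called changes are those of Cavin1 on days 7, 14 and 21, Cavin3 on day 7 and Cav1 on day 21; the other intervals belong to changes that did not pass.

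By count, 2 of the 6 genes were lower and 0 higher 7 days after injury than before it, when 8.53% of all genes tested were called lower and 11.3% higher (19.8% in either direction). For day 14 the count was 1 of 6 lower, against 1.42% of all genes (6.22% in either direction). For day 21 it was 2 of 6 lower, against 2.93% (8.84% in either direction). No member was called for day 28, when 0.369% of all genes were lower (1.34% in either direction). At an unadjusted edgeR p under 0.05 there was 1 member on that day, Cav1, and DESeq2 called it. Genes with every library below every day 0 library numbered 1 on day 7, against 9.71% of all genes tested. The same count was 2 for day 14 (6.79% of all genes), 2 for day 21 (6.81%) and 1 for day 28 (5.07%). The median log2 fold change of the 6 genes was -0.23, -0.32, -0.50 and -0.22 for days 7, 14, 21 and 28, against 0.07, 0.05, 0.07 and -0.01 over all genes tested.

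Against day 7, 1 of the 6 genes was called on each of days 21 and 28. Cav1 was lower on day 21, as were 3.23% of all genes (7.26% in either direction), with no overlap between the days, as in 9.18% of all genes. Cavin1 was higher on day 28, as were 6.4% of all genes (14.4% in either direction), again with no overlap, as in 9.74%. No member was called between days 14 and 7 (1.66% of all genes in either direction). Cavin3 had every day 14 library above every day 7 library (206 to 334 against 138 to 194 CPM, edgeR adjusted p = 0.606). The share of all genes so separated is not given here. At an unadjusted edgeR p under 0.05 there was none for that comparison, and DESeq2 called none.

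Cav1 and Cavin1 were both lower on day 21, and on day 28 Cavin1 stood at 85.0% of its day 0 level and Cav1 at 43.8%. The ratio of Cav1 CPM to Cavin1 CPM was 0.377 to 0.628 in the day 0 libraries and 0.528 to 1.09 on day 7. It was 0.412 to 0.629 on day 14, 0.240 to 0.373 on day 21 and 0.189 to 0.272 on day 28. All libraries of days 21 and 28 were thus below the lowest of day 0. This ratio was chosen after the values of both genes had been seen and carries no test.

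The day 7 libraries differed among themselves in endothelial RNA. A list of 10 endothelial genes summed to 846, 900.3, 2584 and 2370 CPM in replicates 1 to 4, against 788, 1124, 1333 and 962 CPM on day 0. Replicates 3 and 4 were also the higher day 7 libraries for Cav1, Cav2, Cavin1, Cavin2 and Ehd2, and not for Cavin3. Per 100 CPM of the endothelial list, Cav1 was 55.9 to 73.8 in the day 7 libraries and 88.5 to 149 in those of day 0. On the same scale Cav2 was 18.6 to 26.3 against 33.0 to 67.5, and Ehd2 was 17.98 to 24.8 against 29.4 to 61.8. Cavin1 was 61.4 to 112 against 199 to 395. For these 4 genes, every day 7 library lay below every day 0 library on this scale, whereas for Cavin2 and Cavin3 the days overlapped. No test was made on this scale, and the share of all genes so separated was not taken. The ratios share a denominator, whose mean was 1051 CPM on day 0 and 1675 CPM on day 7, and a higher denominator lowers every ratio. In plain CPM, Cavin1 was the only member with every day 7 library below day 0, as in 9.71% of all genes tested. Within the list, 4 of 10 endothelial genes were called higher on day 7 (Kdr, Cldn5, Cdh5 and Egfl7) and 1 lower (Vwf, -2.61). The part of endothelial content in the levels of the caveolar genes was not tested. On days 14, 21 and 28 the list summed to 823 to 1713 CPM.

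**Figure D3:**
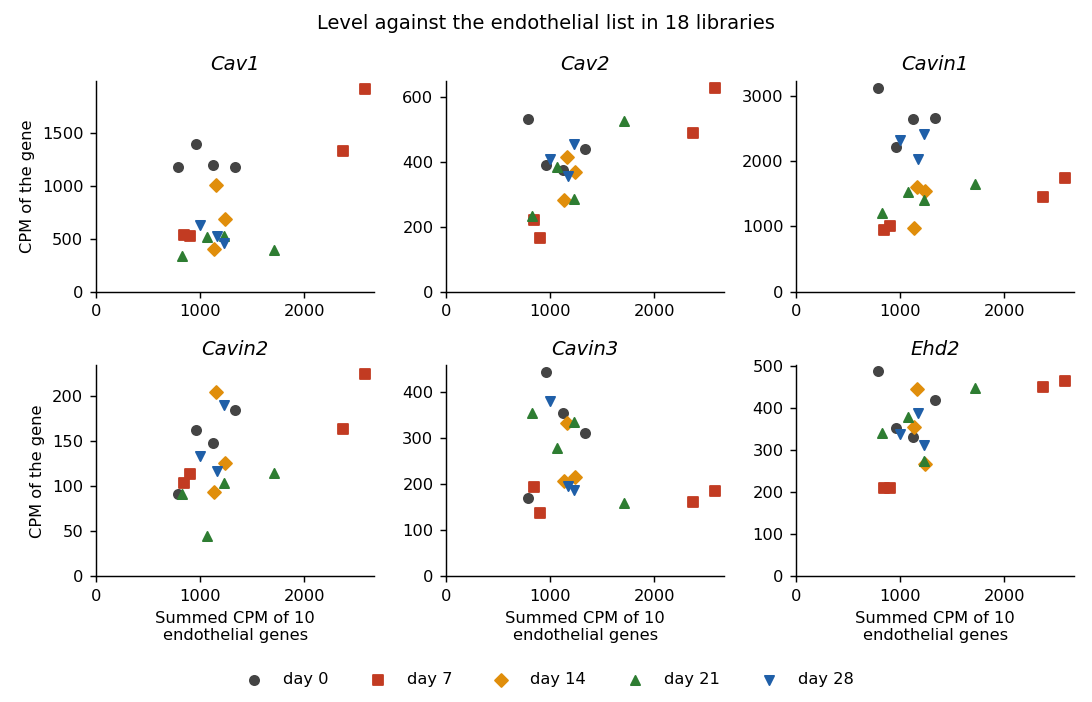
Level of each gene (CPM, vertical axis) against the summed level of 10 endothelial genes (CPM, horizontal axis), with a point for each of the 18 libraries and days shown by colour. Day 7 replicates 3 and 4 lie apart at 2584 and 2370 CPM of the endothelial list and are high there for Cav1, Cav2 and Ehd2.

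Smooth muscle cells carry caveolae too, so the 6 genes were also set against the contractile list, in the same libraries. For each library the log2 ratio of the gene (CPM + 1) to the summed contractile list was taken, and days 7 and 21 were set against day 0. Per 1000 CPM of the contractile list, Cav1 stood at 29.4 to 35.9 CPM on day 0 and at 142 to 931 CPM on day 7. For all 6 genes the ratios of the day 7 libraries lay above those of day 0 with no overlap. The folds were 9.01 for Cav1, 9.17 for Cav2, 5.71 for Cavin1, 12.2 for Cavin2, 6.73 for Cavin3 and 9.54 for Ehd2. The 6 ratios share a denominator, which was 3739 CPM on day 7 and 37973 CPM on day 0, a larger change than that of any of the 6 genes. The separation of the days therefore follows from the denominator, and the exact two-sided permutation test, which gave its smallest p for 4 against 4 libraries (0.0286) each time, adds nothing to it. Cavin1 and Cavin3 were lower in CPM on day 7, by less than the contractile list was.

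On day 21, the Cavin3 ratio was 2.37 times that of day 0 with no overlap (exact permutation p = 0.0286). Its value after adjustment over 12 such tests, 0.049, rests on the 6 tests of day 7 standing at the same smallest p and is not read as a call. The Cav1 ratio was 22.9 to 44.1 CPM per 1000 on day 21 and overlapped day 0 (log2 difference -0.09, exact permutation p = 0.714), and the other 4 genes overlapped too. On day 28 the Cav1 ratio was 21.0 to 22.7 CPM per 1000, below all 4 day 0 libraries. That of Cav2 lay the other way, at 13.5 to 21.2 on day 28 against 10.1 to 13.3 on day 0, and the remaining genes overlapped. On day 14 the Cav1 ratio was 40.5 to 76.4, above every day 0 library. The day 14 ratios of Cav2, Cavin2, Cavin3 and Ehd2 were above day 0 as well. The share of all genes so separated was not taken. A list of 8 genes of fibroblasts, which carry caveolae as well, summed to 3064 ± 674 CPM on day 0 and 1417 ± 554 CPM on day 7 (5 lower, 1 higher), and its part in these ratios was not tested. Days 14 and 28, with 3 libraries each, were given no test of this ratio. Cavin1 stood at 57.3 to 78.1 CPM per 1000 on day 0 and 77.2 to 113 on day 28.

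**Figure D4:**
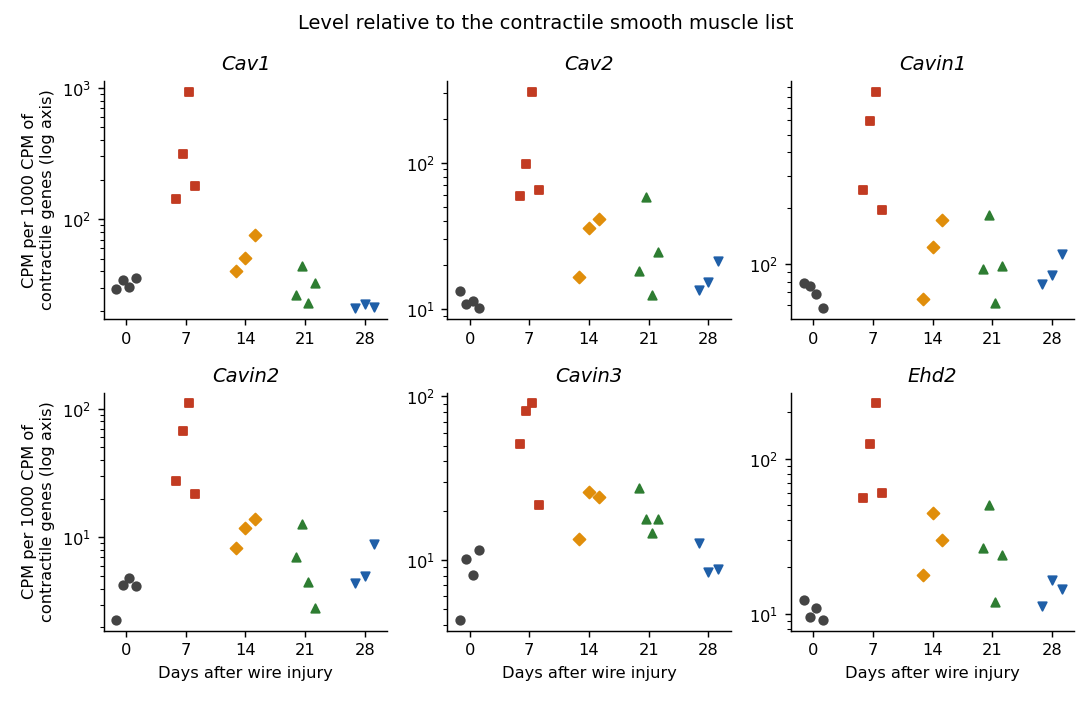
Level of each gene per 1000 CPM of the contractile smooth muscle list (vertical axis, log scale) in every library by day after injury (horizontal axis). The ratios of all 6 genes are higher on day 7 than on day 0, where the shared denominator differs, and Cav1 on day 28 lies at 21.0 to 22.7, under its day 0 range of 29.4 to 35.9. Cav2 on day 28 lies at 13.5 to 21.2, above its day 0 range of 10.1 to 13.3.

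Genes that work with the caveolar coat were taken from a list of 26, of which 22 passed the filter on low counts. Cavin4 (15 counts in all libraries together), Pacsin1 (19), Dnm3 (61) and Ehd3 (101) did not. Against day 0, 5 of the 22 were lower and 1 was higher on day 7, when 8.53% of all genes tested were lower and 11.3% higher. The count was 1 lower for day 14 (1.42% of all genes) and 2 lower for day 21 (2.93%), and edgeR called none for day 28, when 1 (Insr) had an unadjusted edgeR p under 0.05 (0.0459) and DESeq2 called none. Their median log2 fold changes were -0.30, -0.17, -0.02 and -0.22 on days 7, 14, 21 and 28. Against day 7, 4 were higher and 1 lower on day 28 (all genes, 6.4% higher and 8.05% lower), and 1 each was lower on days 14 (0.33%) and 21 (3.23%).

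Cav3, the muscle caveolin, fell from 65.4 to 15.8 CPM on day 7 (log2 fold change -2.01, SE 0.52, edgeR adjusted p = 0.00656) and was higher on day 28 than on day 7 (1.77, edgeR adjusted p = 0.0312). Skeletal muscle also expresses Cav3. A list of 6 skeletal muscle genes summed to 0 to 5.96 CPM on day 0 and was high in day 7 replicate 2 (91.6 CPM), day 14 replicate 2 (379 CPM) and day 21 replicate 1 (299 CPM). Flna, whose product filamin A ties caveolae to actin stress fibres, fell from 6882 to 1408 CPM on day 7 (-2.29, edgeR adjusted p = 4.97e-06). It was also lower on day 14 (-1.45, edgeR adjusted p = 0.00583) and day 21 (-1.51, edgeR adjusted p = 0.00178), the same 3 times as Cavin1.

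The syndapins, membrane-bending proteins found at the caveolar neck, were represented by Pacsin2 and Pacsin3. Pacsin2 fell from 144 to 72.6 CPM on day 7 (-0.99, edgeR adjusted p = 0.0202) and Pacsin3 from 61.6 to 21.0 CPM (-1.53, edgeR adjusted p = 0.0112). Flot2, a flotillin that marks other membrane microdomains, fell from 168 to 77.4 CPM on day 7 (-1.11, edgeR adjusted p = 0.00701) and was lower on day 21 as well (-0.92, edgeR adjusted p = 0.0443). Cd36, a fatty acid and lipoprotein receptor that macrophages express, was the partner that rose, from 3.49 to 114 CPM on day 7 (4.90, edgeR adjusted p = 0.000131). It rose beside the macrophage list, which went from a mean of 284 to 5539 CPM, and the part of macrophages in it was not tested. Insr, the insulin receptor, was higher on day 28 than on day 7 (1.53, edgeR adjusted p = 0.0202). So was Trpc1, a cation channel found in caveolae (edgeR adjusted p = 0.0346), with 1 to 6 counts a library on day 7 and 1 to 40 on day 28, and so was Flna (2.07, edgeR adjusted p = 0.000114). Cd36 was lower than on day 7 at each later time (edgeR adjusted p = 0.0215, 0.0436 and 0.000247 for days 14, 21 and 28).

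**Figure D5:**
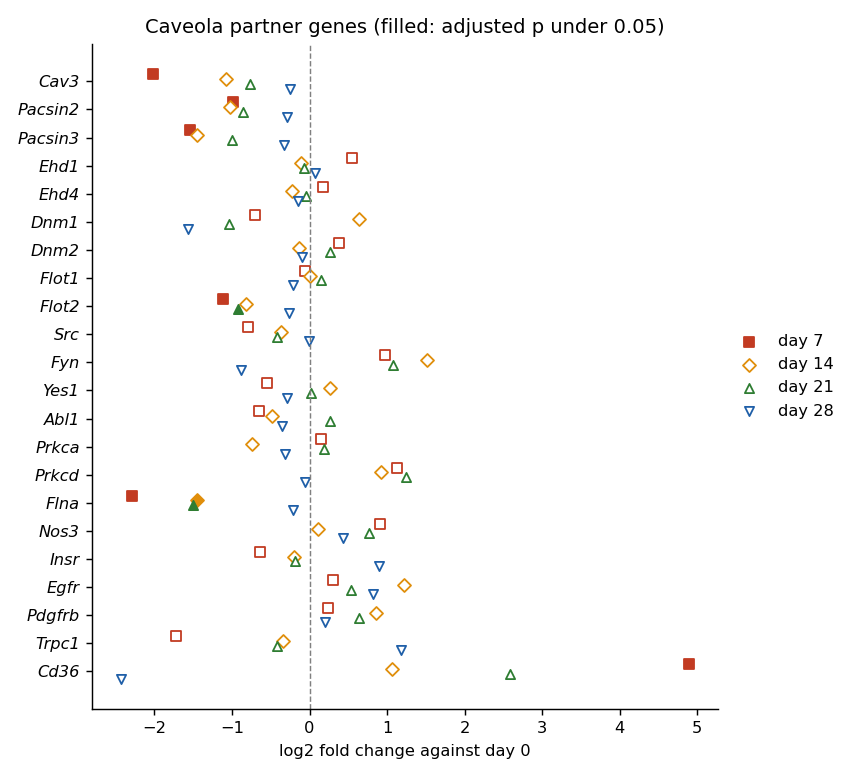
Log2 fold change against day 0 of the 22 partner genes tested (rows) on days 7, 14, 21 and 28, with called changes marked. The largest called fall is that of Flna on day 7 (-2.29) and the called rise is that of Cd36 (4.90).

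Likeness was measured as Pearson's r of log2 CPM over the 18 libraries, as a description, since libraries of a day share their condition. Cav2 and Ehd2 were each other's nearest gene among 10311 others (r = 0.82). After Ehd2, the genes most like Cav2 were Pecam1 (r = 0.77), an endothelial adhesion molecule, and Hint2 (r = 0.76). After Cav2, those most like Ehd2 were Drosha (r = 0.77) and Cep63 (r = 0.75). Cavin1 was most like Flna (r = 0.88), the small heat shock protein gene Hspb8 (r = 0.88) and Csrp1 (r = 0.87), a LIM protein gene of smooth muscle.

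Cav1 was most like Degs1 (r = 0.86), a ceramide synthesis enzyme, the intermediate filament gene Vim (r = 0.85) and Sod1 (r = 0.81). In that order Cavin2 ranked 112, Cav2 143, Cavin1 296, Ehd2 517 and Cavin3 3248. Cavin2 was most like Rad23b (r = 0.74), Ndufa4 (r = 0.74) and Fh1 (r = 0.73). Cavin3 was most like the calponin gene Cnn3 (r = 0.87), Hspb1 (r = 0.86) and Ilkap (r = 0.84), and no other caveolar gene ranked above 2520 in its order. Among pairs of the 6 genes, Cav2 with Ehd2 had the highest r, and the r of Cavin3 with the other members ran from -0.033 to 0.28.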

How the data were processed

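Carotid tissue from before or after injury was laser-captured and sequenced as 18 MACE-seq libraries with molecular identifiers. Per the study's methods, the authors removed duplicate molecules (TrueQuant), trimmed reads, and quantified them with Salmon 1.9.0 against the mm39 transcriptome. The deposited values were estimated counts per gene, which are whole numbers in the file, and a table of normalised signal that the authors made from the counts with DESeq2 1.36.0. That signal was used only for a scaling alternative. The annotation release and the use of strand are not given in the sources used here.

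The counts of all days were fitted together in edgeR 4.0.16 (R 4.3.3, limma 3.58.1), with TMM scaling, its filter on low counts by day, and quasi-likelihood tests adjusted over 10312 genes (threshold 0.05). Standard errors are the log2 fold change over the root of F. Library totals ran from 440675 to 878310. The permutation tests were exact, with a pseudocount of 1 CPM. The fit was also run on simulated counts, with changes set on day 7 only and in fewer genes than in these data. Its outcome is not used here. The 6 genes, the marker and partner lists and the tests were chosen with earlier results of these data known. The comparisons of the 6 genes with day 0 are all given, the partner genes named are those called, and the 3 most alike genes are named per member. The labels do not say that libraries are from separate animals, and the paper calls the samples pooled. The p-values therefore measure the spread between these libraries. Libraries sharing a replicate number did not deviate together (33 pairs, r -0.13 to 0.20), nor did those of days 0 and 21 that share a number in their names (3 pairs, r -0.01 to 0.06). No libraries of a day were duplicates by a chi-square comparison of counts. Alternatives were DESeq2 1.42.0, RLE scaling, no filter, the 2 days compared alone, a replicate block, the deposited factors, and leaving out each library.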

Additional observations from a re-analysis of the deposited data

Results flagged for a closer look

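Within the 4 day 0 libraries, Cav1 in replicate 4 (1388 CPM) stood apart from the other 3, with a gap to the nearest of 0.891 of the whole range. Those 3 lay close together, at 1173 to 1197 CPM, which makes the gap large relative to the range. Of the 18 groups of 4 libraries examined for the 6 genes, this was the 1 that stood out, and chance gives about 1 in 20.

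The change of Cav1 differed between days 21 and 7, as tested directly by edgeR (log2 difference -1.28, adjusted p = 0.0162), with every day 21 library below every day 7 library. The change of Cavin1 differed between days 28 and 7 by 0.81 (edgeR adjusted p = 0.0195), with every day 28 library above every day 7 library. Both calls were lost in some fits that left out a library. In those fits the edgeR adjusted p was 0.0675 to 0.12 for Cav1 and 0.0508 to 0.0566 for Cavin1.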

How the results depend on the processing

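The calls of Cavin1 on days 7 and 21 and of Cav1 on day 21 against day 0 held in every alternative run, with edgeR or DESeq2 adjusted p up to 0.0049, 0.0482 and 0.0283. The number of the 6 genes called on day 28 went from 0 to 1 against day 0 under DESeq2, without the filter, with only the 2 days compared and with the deposited factors. Against day 7 it went from 1 to 2 under DESeq2, without the filter and with the deposited factors. Leaving out 1 library gave 1 to 2 of the 6 genes on day 7, and 0 to 1 on day 14 against day 0, and 0 to 1 on days 21 and 28 against day 7. With Myh11 alone, 4 in place of 1 of the day 21 ratios had an adjusted exact permutation p under 0.05, which rests on the tests of day 7 as well, and the Cav1 log2 ratio was 0.47.

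Over all genes, day 28 against day 0 gave 138 calls, and 366 under DESeq2, 363 without the filter, 32 with only 2 days and 364 with the deposited factors (63 to 480 without 1 library). Day 14 against day 7 gave 171, and 317, 392, 83 and 309 in the same order (26 to 318 without 1 library). Day 28 against day 7 gave 1490, and 922 with only 2 days. Day 14 against day 0 gave 641 (233 to 762 without 1 library, the lowest without day 14 replicate 2). Partner genes called on day 14 were 1, and 3 under DESeq2, 4 with the deposited factors and 0 to 2 without 1 library. Those on day 21 were 2 (1 to 3 without 1 library), and those on day 28 were 0 (0 to 1).

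With the replicate block, calls on day 28 against day 0 were 72 in place of 138 and partner genes on day 21 were 1, but numbers did not pair the libraries. The block turned Cav2 against day 7 to 0.035 on day 14 and 0.015 on day 21, and Cavin2 on day 28 against day 0 to -0.050. A block on the number in the library names was possible for day 21 against day 0, with 3 pairs, and gave 3 members in place of 2, adding Cavin2 (-1.05, edgeR adjusted p = 0.041). That fit also left out day 0 replicate 1 and day 21 replicate 2, the lowest and the highest Cavin2 library of their days. The block alone was not tested. Cavin2 on day 28 was -0.0085 against day 0 without the filter and 0.017 against day 7 with only 2 days.

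Other signs that turned belonged to small differences that did not pass. Without 1 library, against day 0, Cav2 ran from -0.19 to 0.024 on day 28, Cavin2 from -0.25 to 0.17 on day 7, from -0.41 to 0.15 on day 14 and from -0.23 to 0.14 on day 28, and Cavin3 from -0.38 to 0.019 on day 21. Against day 7, Cav2 ran from -0.30 to 0.29 on day 14, from -0.29 to 0.29 on day 21 and from -0.080 to 0.51 on day 28. Cavin1 ran from -0.0048 to 0.30 on day 14. Cavin2 ran from -0.43 to 0.16 on day 14 and from -0.25 to 0.25 on day 28. Ehd2 ran from -0.072 to 0.30, from -0.036 to 0.32 and from -0.069 to 0.28 on days 14, 21 and 28. With 3 or 4 libraries a day and the spread of day 7, moderate changes of Cav2, Cavin2 and Ehd2 lie inside the intervals.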
